A study of Mus musculus with 6 samples.

Results

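The genes that encode bone morphogenetic protein (BMP) and activin ligands were followed in CD34hi and CD34lo fibroblasts of the pubertal mouse mammary gland. The set holds 10 of the 27179 genes in the count table, chosen by name: *Bmp2*, *Bmp3*, *Bmp4*, *Bmp5*, *Bmp6*, *Bmp7*, *Gdf10*, *Inhba* and *Inhbb*, which encode ligands or ligand subunits, and *Bmper*, which encodes a secreted protein that binds BMPs. Stromal cells of FVB/N mice (FVB/NJ in the study's methods) at 6 weeks of age, with no transgene or treatment, were gated as Lin-, CD24- and Pdgfrα+ and separated by their surface CD34 into a high and a low fraction. Each of 3 pools of 2 mice gave 1 CD34hi and 1 CD34lo library, so that 6 libraries of polyA RNA were compared and each library averaged 2 animals. The sort marker *Cd34* was higher in every CD34hi library (2490 to 2639 CPM, counts per 1e+06 counts of a library) than in any CD34lo library (476 to 793 CPM), and the fibroblast genes *Pdgfra*, *Col1a1* and *Dcn* were at 637 CPM or more in each of the 6 libraries.

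BMPs, growth and differentiation factors (GDFs) and activins are secreted dimers of the transforming growth factor beta superfamily. BMPs bind pairs of type I and type II serine/threonine kinase receptors and act mainly through SMAD1, SMAD5 and SMAD9, whereas activins act mainly through SMAD2 and SMAD3. In the mammary gland, BMP signalling takes part in the formation of the embryonic bud, and the activin βB subunit encoded by *Inhbb* is needed in the stroma for normal growth of the ducts. In fat tissue, several BMPs take part in the commitment of mesenchymal precursors to the adipocyte lineage.

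Upstream sequence is shown for the 4 members with the widest contrasts among those whose RefSeq window adjoins the gene's start in the count table, to set CpG-rich beside CpG-poor promoters. Of the 10 members, 7 were matched by gene identifier to a promoter in the RefSeq table of build GRCm38.p6, and the others were *Bmp2*, *Bmp3* and *Bmp7*. Each line gives the 250 bases before the start site, 5′ to 3′ on the strand of the gene, with CG dinucleotides in capitals. The windows are chr14:33923337-33923586 (+ strand) for *Gdf10*, chr9:23222826-23223075 (+ strand) for *Bmper*, chr9:75775115-75775364 (+ strand) for *Bmp5* and chr13:38345466-38345715 (+ strand) for *Bmp6*. *Gdf10* and *Bmper* were higher in CD34lo fibroblasts, as was *Bmp5*, whereas *Bmp6* was higher in CD34hi fibroblasts.
Gdf10: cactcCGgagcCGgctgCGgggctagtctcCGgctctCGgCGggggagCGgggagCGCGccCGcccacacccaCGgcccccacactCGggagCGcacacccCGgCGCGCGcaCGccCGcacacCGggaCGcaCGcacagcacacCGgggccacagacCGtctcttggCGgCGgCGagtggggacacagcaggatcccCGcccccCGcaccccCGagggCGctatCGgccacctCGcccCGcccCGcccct
Bmper: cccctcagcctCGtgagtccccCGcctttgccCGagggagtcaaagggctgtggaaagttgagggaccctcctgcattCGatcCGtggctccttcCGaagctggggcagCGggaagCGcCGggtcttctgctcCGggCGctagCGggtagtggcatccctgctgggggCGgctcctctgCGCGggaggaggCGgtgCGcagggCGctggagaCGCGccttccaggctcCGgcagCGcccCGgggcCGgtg
Bmp5: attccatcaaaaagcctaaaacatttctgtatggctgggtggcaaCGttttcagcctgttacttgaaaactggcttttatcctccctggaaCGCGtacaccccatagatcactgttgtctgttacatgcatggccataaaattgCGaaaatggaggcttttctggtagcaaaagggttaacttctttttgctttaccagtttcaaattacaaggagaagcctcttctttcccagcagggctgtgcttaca
Bmp6: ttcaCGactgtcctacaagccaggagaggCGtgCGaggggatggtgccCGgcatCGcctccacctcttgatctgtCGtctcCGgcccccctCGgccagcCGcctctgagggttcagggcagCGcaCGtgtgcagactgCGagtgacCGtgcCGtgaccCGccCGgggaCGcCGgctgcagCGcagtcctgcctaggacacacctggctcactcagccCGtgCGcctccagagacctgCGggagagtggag

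The *Gdf10* window held 35 CG dinucleotides and lay at the 97.4 percentile of 32851 RefSeq windows of the same length, whose median was 6. *Bmper* had 24, *Bmp6* 22 and *Inhbb* 21, whereas *Bmp4* had 11, *Bmp5* 4 and *Inhba* 3. The *Inhba* window lies 2624 bases from the 5′ end of the gene in the count table, so it may belong to another start site. Among these 7 windows, members that were higher in CD34lo fibroblasts had both the most and the fewest CG dinucleotides. *Bmp6* was the only member higher in CD34hi fibroblasts that had a window. The directions can therefore not be compared by CG content. The motifs below were searched on both strands, where the last can contain or overlap others. TATAAA was found in the window of *Inhba* alone and is present in 12.4% of all windows. CCAAT (33.8% of all windows) and GGCGCC (9.59%) were found in none of the 7. The E-box CANNTG, present in 66.2% of all windows, occurred at 3 places for *Bmp4* and 2 for *Bmp6* and in none of the other windows.

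Of the 15219 genes that passed edgeR's filter on low counts, 35.6% differed between the populations at an adjusted p-value under 0.05 (quasi-likelihood test of edgeR, adjusted by Benjamini and Hochberg), 16.9% being higher in CD34hi and 18.7% higher in CD34lo fibroblasts. All 10 members passed the filter, in both populations. Of these, 9 (90%) differed between the populations: *Bmp2*, *Bmp3*, *Bmp6* and *Bmp7* were higher in CD34hi, and *Bmp5*, *Gdf10*, *Bmper*, *Inhba* and *Inhbb* were higher in CD34lo fibroblasts. *Bmp4* did not pass the threshold. In 9 of the 10, no CD34hi library overlapped with a CD34lo library, and the same 9 moved in 1 direction within all 3 mouse pools. Over all tested genes, 50.1% had no overlap between the populations and 65.6% moved in 1 direction in all pools. The members were chosen with earlier results of these data known, so their shares and those of all genes are not an unbiased comparison. Levels of single genes are given below as CPM scaled by the trimmed mean of M-values (TMM), in the order of pools 1, 2 and 3, and log2 fold changes are CD34hi vs CD34lo, so that a negative value means a higher level in CD34lo cells. In sorted bulk samples, a lower level can come from fewer cells that express the gene or from less RNA per cell, and these cannot be told apart. The smallest p of an exact two-sided permutation test that ignores the pools is 0.1, and a test within pools could not go as low. The p-values are therefore those of the genome-wide edgeR model, which in its main form had no term for the mouse pool.

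**Figure D1:**
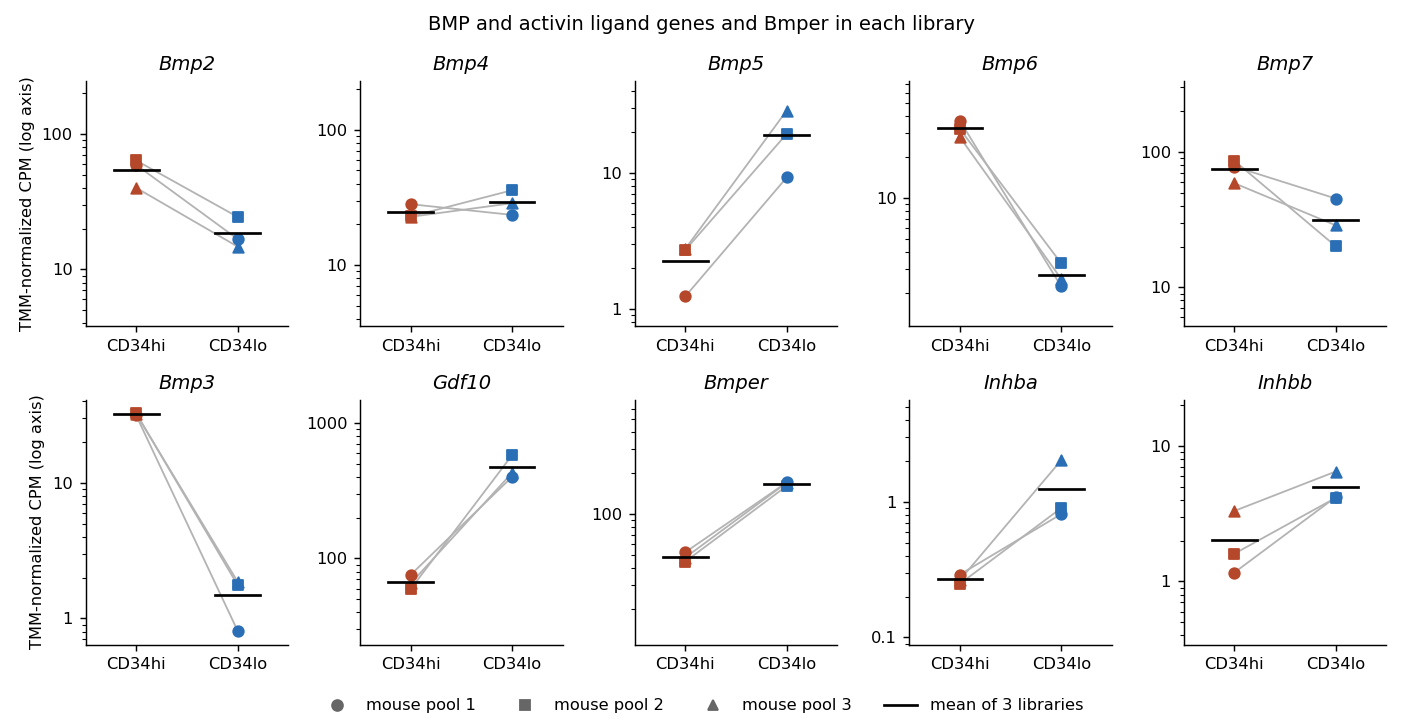
TMM-normalized CPM (log axis) of each of the 10 genes in the 3 CD34hi (red) and 3 CD34lo (blue) libraries. Symbols mark the mouse pool, grey lines join libraries of the same pool, black bars are the means, and every panel spans the same fold range. The lines of *Bmp4* cross, whereas those of every other gene run in 1 direction.

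*Bmp2* and *Bmp4* encode closely related ligands, both of which can direct mesenchymal precursors to bone or fat. *Bmp2* (gene 12156, chromosome 2, 133553199 to 133562885, + strand) was at 58.9, 63.5 and 39.9 CPM in the CD34hi libraries and at 16.7, 24.4 and 14.7 CPM in the CD34lo libraries. Every CD34hi library lay above every CD34lo library, a 2.91-fold difference (log2 fold change 1.54, standard error 0.23, adjusted p = 0.00101 from edgeR). The difference was present in each pool, between 1.38 and 1.81 on the log2 scale. *Bmp4* (gene 12159, chromosome 14, 46383520 to 46390599, - strand) was at 28.2, 22.9 and 22.8 CPM in CD34hi and at 23.5, 35.7 and 28.7 CPM in CD34lo fibroblasts. The 2 ranges overlapped, and *Bmp4* was higher in the CD34hi library of pool 1 and in the CD34lo libraries of the other pools. Its log2 fold change was -0.25 (95% interval -0.64 to 0.14, adjusted p = 0.295 from edgeR), an interval that spans 0 and leaves room for a difference of up to 0.64 in favour of CD34lo cells. The antisense gene *Gm15217* overlaps *Bmp4* and had 34 counts in all libraries together, against 6284 for *Bmp4*.

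*Bmp5*, *Bmp6* and *Bmp7* form a subgroup of BMPs with similar mature domains, and they did not move together. *Bmp6* (gene 12161, chromosome 13, 38345716 to 38499728, + strand), best known as the liver signal that controls hepcidin and iron, was at 37.3, 32.4 and 28.2 CPM in CD34hi and at 2.23, 3.31 and 2.54 CPM in CD34lo fibroblasts. This 12.2-fold difference was far larger than the spread within either population (log2 fold change 3.61, standard error 0.19, adjusted p = 5.19e-06 from edgeR). *Bmp7* (gene 12162, chromosome 2, 172869686 to 172940293, - strand), which promotes brown fat differentiation and kidney development, was at 77.7, 85.8 and 58.6 CPM in CD34hi fibroblasts and at 45.1, 20.1 and 28.6 CPM in CD34lo fibroblasts. The CD34lo library of pool 1 came closest to the CD34hi range without reaching it. On the log2 scale the difference was 1.24 (standard error 0.28, adjusted p = 0.00789 from edgeR), and within pools it was 0.78, 2.09 and 1.03.

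*Bmp5* (gene 12160, chromosome 9, 75775365 to 75899017, + strand), the gene mutated in short-ear mice with skeletal defects, went the other way. It was at 1.23, 2.70 and 2.76 CPM in CD34hi fibroblasts and at 9.26, 19.4 and 28.8 CPM in CD34lo fibroblasts. The CD34lo level varied among libraries (19.2 ± 9.78 CPM, SD, n = 3), but its lowest library was still above the highest CD34hi library. *Bmp5* was 8.58-fold higher in CD34lo cells (log2 fold change -3.10, standard error 0.45, adjusted p = 8.3e-04 from edgeR). With the mouse pool as a block, the standard error was 0.18 (adjusted p = 9.51e-07 from edgeR). Pool 1 had the lowest *Bmp5* in both populations, and the within-pool differences were close to each other (-2.86, -2.82 and -3.36).

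*Bmp3* and *Gdf10*, also known as *Bmp3b*, encode a divergent pair of ligands. BMP3 opposes signalling by other BMPs, and GDF10 is known as a secreted inhibitor of adipogenesis. *Bmp3* (gene 110075, chromosome 5, 98854439 to 98880960, + strand) was at 31.3, 32.5 and 32.2 CPM in CD34hi fibroblasts, the tightest of the members in that population relative to its level, and at 0.81, 1.76 and 1.86 CPM in CD34lo fibroblasts. The CD34lo values rest on 44, 49 and 58 counts. With a 22.4-fold difference, it had the largest log2 fold change of the 10 genes (4.48, standard error 0.28, adjusted p = 1.0e-05 from edgeR).

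*Gdf10* (gene 14560, chromosome 14, 33923587 to 33935285, + strand) was at 75.8, 59.6 and 65.5 CPM in CD34hi and at 400.1, 578 and 428 CPM in CD34lo fibroblasts. It was thus 7.0-fold higher in CD34lo cells (log2 fold change -2.81, standard error 0.18, adjusted p = 1.15e-05 from edgeR), the opposite direction to its closest relative among the members. *Gdf10* was not low in CD34hi cells, where its level per length stood at the 85.6 percentile of the tested genes, against the 98 percentile in CD34lo cells. For *Bmp3* the corresponding percentiles were 67.1 and 14.7.

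BMPER, the BMP-binding endothelial regulator, is a secreted chordin-like protein that can inhibit or promote BMP signalling depending on its amount. *Bmper* (gene 73230, chromosome 9, 23223076 to 23485202, + strand) was at 52.4, 44.7 and 47.9 CPM in CD34hi and at 171, 161 and 170.4 CPM in CD34lo fibroblasts. Both populations were tight and well separated, and the 3.47-fold difference had the smallest standard error of the 10 genes (log2 fold change -1.80, standard error 0.11, adjusted p = 9.98e-06 from edgeR).

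The activin subunit genes were among the least expressed members. *Inhba* (gene 16323, chromosome 13, 16014475 to 16027211, + strand) encodes the βA subunit of activin A and *Inhbb* (gene 16324, chromosome 1, 119415465 to 119422248, - strand) the βB subunit of activin B, and both also form inhibins with the α subunit. *Inhba* was at 0.29, 0.25 and 0.26 CPM in CD34hi fibroblasts, from 13, 9 and 12 counts, and at 0.81, 0.90 and 2.03 CPM in CD34lo fibroblasts, from 44, 25 and 63 counts. The groups did not overlap (log2 fold change -2.19, standard error 0.47, adjusted p = 0.00683 from edgeR). The CD34lo library of pool 3 was the highest, and the log2 fold change was -1.65 without it, with an adjusted p of 0.0202 from edgeR.

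*Inhbb* was at 1.16, 1.60 and 3.31 CPM in CD34hi and at 4.19, 4.14 and 6.46 CPM in CD34lo fibroblasts. Pool 3 had the highest value in both populations, the groups did not overlap, and the within-pool differences were -1.81, -1.34 and -0.96. This gave the weakest call among the 9 (log2 fold change -1.28, standard error 0.39, adjusted p = 0.0316 from edgeR). The call was lost when any of 4 single libraries was left out: without CD34hi replicate 1, 2, CD34lo replicate 1 or 3, the adjusted p from edgeR was 0.0925, 0.103, 0.0545 or 0.109. With the mouse pool as a block, the adjusted p was 0.00152. The gene for the shared α subunit, *Inha*, was at 1.34 to 2.25 CPM in CD34hi and 1.03 to 1.47 CPM in CD34lo fibroblasts and did not pass the threshold (log2 fold change 0.55, adjusted p = 0.204 from edgeR).

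**Figure D2:**
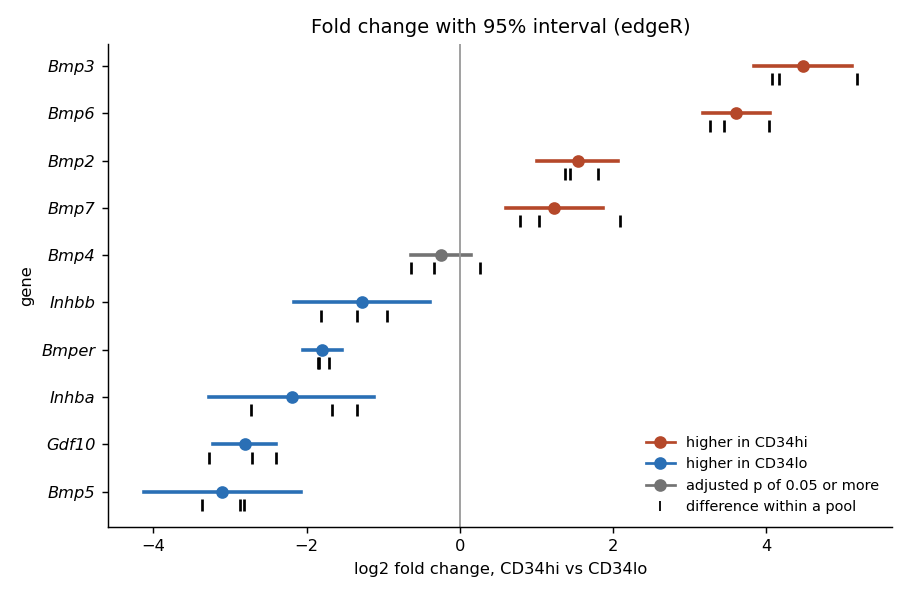
Log2 fold change of each gene between CD34hi and CD34lo fibroblasts from edgeR (points), with the 95% interval (bars) and the difference within each of the 3 mouse pools (ticks). The values run from 4.48 for *Bmp3* to -3.10 for *Bmp5*, and the interval of *Bmp4* alone spans 0.

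To compare genes with each other, levels were divided by the gene length in the table and expressed as RPKM (CPM per kilobase, mean of 3 libraries). In CD34hi fibroblasts, *Bmp7* (37.6), *Gdf10* (26.7) and *Bmp2* (21.5) were the highest members, and neighbours in this order overlapped in their ranges. *Bmp6* (13.5), *Bmper* (12.7) and *Bmp4* (12.3) followed, again with overlapping ranges, and *Bmp3* stood at 10.3. *Bmp5* (0.88), *Inhbb* (0.48) and *Inhba* (0.18) were lowest, and the first of these overlapped with the second. In CD34lo fibroblasts, *Gdf10* (187 ± 38.1, SD, n = 3) and *Bmper* (44.2 ± 1.45, SD, n = 3) stood apart from all others. *Bmp7* (15.9) and *Bmp4* (14.7) overlapped, as did *Bmp5* (7.58) and *Bmp2* (7.40). *Inhbb* (1.16), *Bmp6* (1.12), *Inhba* (0.81) and *Bmp3* (0.48) each overlapped with the next.

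The makeup of the ligand transcripts was described with the RPKM of the 7 BMP-type ligand genes among the members, leaving out *Bmper* and the activin subunits. Ligand genes outside the members were not in the sum. Among these were *Bmp8a* (mean 9.35 RPKM in CD34hi and 0.08 in CD34lo) and *Gdf15* (2.67 and 13.6). *Gdf10* made up 21.9% ± 3.14 (SD, n = 3) of the sum in CD34hi and 79.5% ± 2.97 (SD, n = 3) in CD34lo libraries. *Bmp7* accounted for 30.5% and 7.17%, *Bmp2* for 17.4% and 3.14%, and *Bmp6* for 11% and 0.48% in the same order. The sum itself was 123 ± 14.5 RPKM in CD34hi and 234 ± 38.4 RPKM in CD34lo libraries (SD, n = 3 each). Without *Gdf10*, the order of the populations turned, at 96.2 ± 13.9 RPKM in CD34hi and 47.2 ± 0.83 RPKM in CD34lo libraries (SD, n = 3 each). Neither sum overlapped between the populations, and no test was made of these sums.

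**Figure D3:**
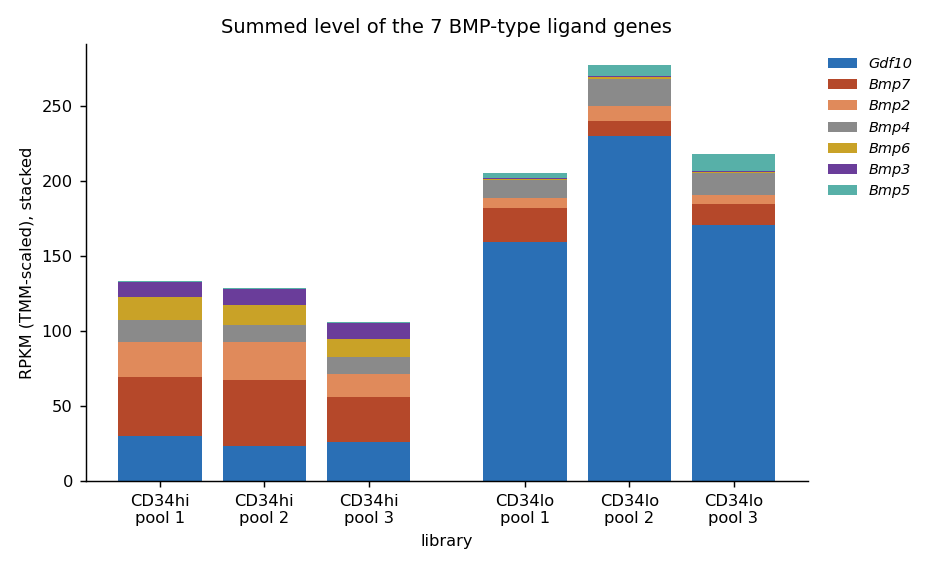
Stacked RPKM of the 7 BMP-type ligand genes in each of the 6 libraries. *Gdf10* fills between 77.5% and 82.9% of each CD34lo bar and between 18.4% and 24.5% of each CD34hi bar, where *Bmp7* and *Bmp2* take larger shares than in CD34lo.

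Of 21 other genes for BMP, GDF and activin ligands, 10 were tested. Of these, 5 were called (50%, against 35.6% over all tested genes), 2 higher in CD34hi and 3 higher in CD34lo fibroblasts. The median log2 fold change of the 10 was 0.20, against -0.01 over all tested genes. Of the 5, 3 passed the filter only through the population in which they were high. *Bmp8a* had 21.1, 33.1 and 13.3 CPM in CD34hi libraries and at most 0.54 CPM in CD34lo libraries, and its reads may be shared with its near-identical neighbour *Bmp8b*, which had at most 0.44 CPM. *Gdf15*, a stress-induced factor, was higher in CD34lo fibroblasts (log2 fold change -2.35, adjusted p = 3.27e-05 from edgeR). *Mstn* and *Gdf2*, the genes of myostatin and BMP9, were called in opposite directions at levels of at most 1.13 CPM. *Lefty1* and *Gdf6* did not pass the threshold, with log2 fold changes of 0.34 and 0.30.

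BMPs and activins are made as precursors that proprotein convertases cut, and the tolloid proteases free BMPs from chordin. Of 7 such protease genes, 3 were higher in CD34hi and 1 was higher in CD34lo fibroblasts (median log2 fold change 0.04). The share called was 57.1%, against 35.6% over all tested genes. *Pcsk6*, the convertase PACE4, was at 567, 547 and 465 CPM in CD34hi and at 28.2, 63.2 and 57.8 CPM in CD34lo fibroblasts (log2 fold change 3.41, adjusted p = 4.6e-05 from edgeR). The tolloid genes *Bmp1* (1.02) and *Tll1* (1.62) were also higher in CD34hi cells, and *Pcsk5* (-0.84) was higher in CD34lo cells, all as log2 fold changes. *Furin*, the general convertase, was at 58.9 to 65.3 CPM in CD34hi and 52.8 to 65.5 CPM in CD34lo fibroblasts, and *Pcsk7* had a log2 fold change of -0.35 that did not pass the threshold.

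Among 18 genes of extracellular antagonists, 12 were tested, with 7 higher in CD34hi and 3 higher in CD34lo fibroblasts (median log2 fold change 0.53). The share called was 83.3% of the tested antagonist genes, against 35.6% over all tested genes. The activin-binding *Fst* (1.62) was among those higher in CD34hi cells. *Fstl3* (-3.62), also activin-binding, and the BMP antagonist *Nog* (-2.95) were among those higher in CD34lo cells, all as log2 fold changes. *Nog* was at 0.11 to 0.39 CPM in CD34hi and 1.06 to 2.86 CPM in CD34lo libraries and passed the filter through CD34lo alone.

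Of 16 receptor and co-receptor genes, 13 were tested. By edgeR, 3 of them were called (23.1%, against 35.6% over all tested genes), all higher in CD34lo fibroblasts (median log2 fold change -0.08). On the CD34hi side, 0 were called by edgeR, limma-voom or DESeq2, and 2 had an unadjusted p under 0.05 in edgeR. With the mouse pool as a block, 6 were called, 2 of them higher in CD34hi cells, and without CD34lo replicate 2 it was 5. The activin type II receptor gene *Acvr2a* was at 47.5, 44.6 and 55.2 CPM in CD34hi and at 73.3, 113 and 108 CPM in CD34lo fibroblasts (log2 fold change -0.995, adjusted p = 0.00239 from edgeR). *Acvr1*, the type I receptor ALK2, was also higher in CD34lo cells (log2 fold change -0.51, adjusted p = 0.00517 from edgeR). *Bmpr1b* was called at no more than 0.61 CPM in any library, having passed the filter through CD34lo alone. The type I receptor gene *Bmpr1a* was at 120.5 to 124 CPM in CD34hi and 93.2 to 115 CPM in CD34lo fibroblasts and did not pass the threshold, nor did the co-receptor *Tgfbr3* (log2 fold change 0.40, adjusted p = 0.0859 from edgeR, and 0.0345 with the mouse pool as a block).

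Of 10 genes for SMADs and their regulators, edgeR called 4, a share of 40%, close to the 35.6% over all tested genes. All 4 were higher in CD34hi and 0 higher in CD34lo fibroblasts (median log2 fold change 0.40). On the CD34lo side, limma-voom and DESeq2 also called 0, and 1 gene, *Smad3*, had an unadjusted p under 0.05 in edgeR. With the mouse pool as a block it was called (adjusted p = 0.0259 from edgeR). *Smad1*, a transducer of BMP signals, was at 90.2, 76.3 and 55.7 CPM in CD34hi and at 32.3, 30.1 and 28.5 CPM in CD34lo cells (log2 fold change 1.29, adjusted p = 5.6e-04 from edgeR). *Smurf1* (1.20) and *Smurf2* (1.37), ubiquitin ligases that act on SMADs and receptors, and *Smad5* (0.36) were the others, as log2 fold changes. *Skil* and *Ski*, repressors of SMAD transcription, did not pass the threshold (log2 fold changes 0.50 and 0.22), although *Skil* did with the mouse pool as a block (adjusted p = 0.0149 from edgeR).

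Of 12 genes known as targets of BMP signalling, 11 were tested, with 6 higher in CD34lo and 1 higher in CD34hi fibroblasts (median log2 fold change -0.88). The share called was 63.6% of the tested targets, against 35.6% over all tested genes. *Id1*, an inhibitor of basic helix-loop-helix factors and a direct SMAD target, was at 9.75, 10.5 and 11 CPM in CD34hi and at 120.5, 89.7 and 104 CPM in CD34lo fibroblasts (log2 fold change -3.33, adjusted p = 2.13e-06 from edgeR). *Runx2*, a regulator of bone formation, was at 7.38, 3.31 and 4.94 CPM in CD34hi and at 118, 52.7 and 125 CPM in CD34lo cells (log2 fold change -4.23, adjusted p = 7.49e-05 from edgeR). *Hey1* was higher in CD34lo cells as well (log2 fold change -2.71), and *Dlx5*, at no more than 0.89 CPM, was the exception (log2 fold change 3.74) and passed the filter through CD34hi alone. *Smad7* and *Id2* did not pass the threshold, with log2 fold changes of -0.14 and -0.28. Several of these genes have regulators other than BMPs, and SMAD activity was not measured.

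**Figure D4:**
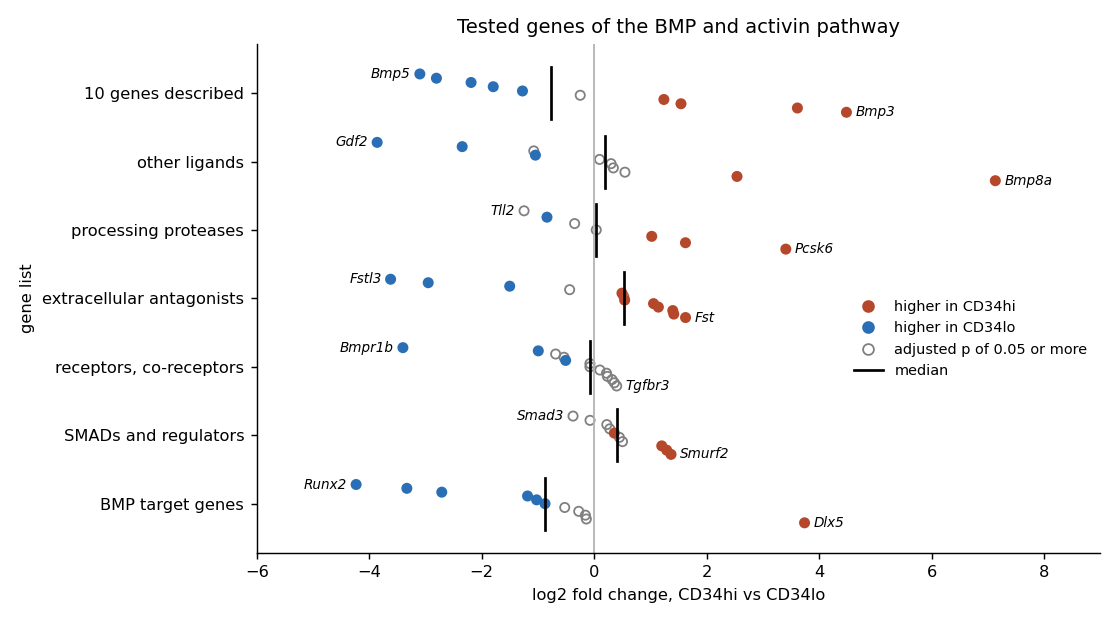
Log2 fold change (CD34hi vs CD34lo) of every tested gene of the 7 lists, with filled points for an adjusted p under 0.05, open points for the others and a vertical bar at the median of each list. The lowest and highest gene of each list is named. The 4 called genes of the SMAD list lie to the right of 0, and 6 of the 7 called BMP target genes lie to the left. Called genes were 40% of the SMAD list and 63.6% of the tested targets, against 35.6% of all tested genes.

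In the study's single-cell data, *Bmp5* marks a cluster annotated as lobular-like fibroblasts and *Gdf10* a cluster of adipogenesis-regulatory cells. Those data came from another mouse strain and from 5 developmental stages. Genes given with these clusters in the study's text, which are part of its markers, were read here in the bulk libraries. *Thbs4* is named there with *Bmp5*. The study gives *Eng*, *Fndc1*, *Cilp* and *Tgfbi* as part of a lobular fibroblast signature with which the cluster shared features. Of these 5 genes, 3 were higher in CD34lo fibroblasts, namely *Thbs4* (log2 fold change -5.17), *Tgfbi* (-2.003) and *Cilp* (-1.31). *Fndc1* was at 3198 to 3851 CPM in CD34hi and 259 to 543 CPM in CD34lo fibroblasts, opposite to *Bmp5* (log2 fold change 3.25, adjusted p = 5.14e-05 from edgeR), and *Eng* did not pass the threshold. Both markers listed with *Gdf10*, *Clec11a* (log2 fold change -2.90) and *Fmo2* (-2.99), were higher in CD34lo fibroblasts, as were 18.7% of all tested genes.

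The genes with the most similar pattern were found by the root mean square distance between centred log2 CPM over the 6 libraries, among tested genes with a mean log2 CPM of at least 3. For *Bmp2* the nearest were *Glul*, *Ccdc3* and *Fst* (distances 0.089 to 0.147), and for *Bmp3* they were *Pdgfc*, *Dpp4* and *Adgrg2* (0.102 to 0.163). *Bmp6* had *Lrrn4cl*, *Igfbp5* and *Opcml* nearby (0.111 to 0.150), and *Bmp7* had *Wnt11*, *Efna5* and *Sdf2l1* (0.208 to 0.212). On the CD34lo side, *Gdf10* lay closest to *Gucy1b1*, *Vtn* and *Clec11a* (0.105 to 0.139), and *Bmper* to *Hgf*, *Btg2* and *Itpr1* (0.0914 to 0.106). *Inhbb* was nearest to *Spon1*, *Lifr* and *Gnb4* (0.212 to 0.238), and *Inhba* to *Tmem47*, *Mid2* and *Amot* (0.201 to 0.273). *Bmp5*, with *Ptger3* (0.419) and *C7* (0.443), had no gene as close as the other members did. With 6 libraries in 2 groups, these distances mostly describe the difference between the populations.

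The libraries held 28764779 to 52402410 counts on genes, for which 3 counts correspond to 0.0572 to 0.104 CPM, a floor that covers counting error only. Markers of other cell types also differed between the sorted fractions. The summed level of 7 pericyte and smooth muscle markers was 140 to 195 CPM in CD34hi and 192 to 277 CPM in CD34lo libraries. Of these markers, 5 were higher in CD34lo cells, among them *Myh11* (log2 fold change -3.88) and *Notch3* (-3.28). This was also the direction of 18.7% of all tested genes, *Gdf10*, *Bmper* and *Bmp5* among them. *Kcnj8*, another of the 7 markers, was higher in CD34hi cells (27.5 to 39.6 CPM against 9.39 to 16.6 CPM, log2 fold change 1.39), and *Abcc9*, which made up much of the sum, did not pass the threshold (0.21). The sum of 6 endothelial markers was 534 to 692 CPM in CD34hi and 49.5 to 80.0 CPM in CD34lo libraries. In CD34hi it was carried mostly by *Tek*, with *Kdr* at 33.9 to 70.9 CPM. *Pecam1* and *Cdh5* were at most 10.4 and 4.33 CPM in CD34hi and higher in CD34lo libraries. Epithelial markers (8 genes) summed to 70.6 to 97.2 CPM in CD34hi and 36.8 to 48.6 CPM in CD34lo libraries. Of them, 1 was called, *Krt19* (12.5%, against 35.6% over all tested genes). Leukocyte markers (6 genes) came to 17.0 to 19.8 and 7.23 to 11.8 CPM, with *Ptprc* at no more than 0.36 CPM in any library. *Cd3e* carried this sum (13.9 to 16.0 CPM in CD34hi and 1.67 to 5.43 CPM in CD34lo libraries, log2 fold change 1.98), whereas *Cd79a* (-1.05) and *Lyz2* (-2.05) were higher in CD34lo cells. Schwann cell markers (4 genes) summed to 6.75 to 7.03 and 15.5 to 20.9 CPM, adipocyte markers (5 genes) to 1.90 to 2.76 and 4.24 to 6.90 CPM, and keratinocyte markers (3 genes) to 14.3 to 19.9 and 3.6 to 7.12 CPM, with *Krt1* at 0 in all 6 libraries. The part of such cells in the levels of the ligand genes was not tested. Of 11 fibroblast markers, 5 were higher in each population (90.9% called, against 35.6% over all tested genes). Those higher in CD34hi cells were the sort marker *Cd34* with *Ly6a*, *Dpp4*, *Pi16* and *Pdpn*. The fibroblast markers summed to 39056 to 47097 CPM in CD34hi and 50112 to 56247 CPM in CD34lo libraries.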

How the data were processed

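Bulk RNA-seq of sorted CD34hi and CD34lo mammary fibroblasts (3 libraries each, from 3 pools of 2 mice) was analysed from the deposited counts. The authors prepared TruSeq RNA v2 libraries, aligned reads to the GRCm38/mm10 genome, counted reads per gene with Rsubread and deposited whole-number counts without normalization. The annotation and the strand setting are not given in the sources used here, and reads of a gene and its antisense partner cannot be told apart. Symbols came from a reference table (25275 of 27179 genes).

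The analysis used edgeR 4.0.16 in R 4.3.3: filterByExpr by population (15219 genes), TMM normalization, the quasi-likelihood test and Benjamini-Hochberg adjustment, with a threshold of 0.05. CPM used TMM-scaled library sizes, and RPKM divided these by the length in the table. Same-numbered libraries come from the same mice, and their deviations from the population means correlated across genes (r = 0.279, 0.0844 and 0.243). The mouse pool as a block was an alternative, beside limma-voom (limma 3.58.1, the authors' method), DESeq2 1.42.0, RLE and upper-quartile scaling, other filters, stricter thresholds and each pool or library left out. Replicates differed by more than sampling noise (chi-square per degree of freedom 24.0 to 115), and the common biological coefficient of variation was 19.7%. The tests were also run on simulated counts with few changed genes and no effect of the mouse pool. That check therefore does not cover the pairing of libraries or the large share of genes called here.

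Members and gene lists were chosen with earlier results of these data known. Named genes are the members, up to 4 called and 2 uncalled genes per list (the called ones by the size of their change, the others by level), the markers, and the 3 genes nearest to each called member. *Inha*, *Gm15217* and *Bmp8b* are named for their relation to a member or a listed gene, after their values were seen. A few genes that this rule names are not reported here.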

Additional observations from a re-analysis of the deposited data

How the results depend on the processing

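The directions of all 10 members were kept under every alternative that gave a value (17 per member, and 16 for *Inhba*, which fell below the filter of at least 10 counts in every library), with 163 values on the same side of the threshold and 6 that lost the call, all of *Inhbb*. Besides the single libraries named above, *Inhbb* lost its call without replicate 1 (log2 fold change -1.08, adjusted p = 0.108 from edgeR) and without replicate 2 (-1.24, adjusted p = 0.116 from edgeR). Its values ranged from -1.83 to -0.97 when a pool or library was left out, and those of *Bmp7* from 0.89 to 1.63. Upper-quartile scaling moved the median over all genes from -0.01 to -0.06 on the log2 scale and the share of calls higher in CD34hi from 47.5% to 42.2%, and no member changed its call. With the replicate block, 6 receptor genes were called in edgeR (and 6 in limma-voom) in place of 3, and it changed no call among the members. When a change of at least 1 on the log2 scale was required, 1 receptor gene was called, and leaving out a pool or library gave 2 to 5, the 5 being without CD34lo replicate 2. With at least 10 counts in every library, 2 other ligand genes were called in place of 5. Over all genes, 3444 were called at an adjusted p under 0.01 (1559 higher in CD34hi and 1885 higher in CD34lo) and 2986 when a log2 change of 1 or more was required (1164 and 1822). Leaving out a pool or library gave 3468 to 5236 calls, the lowest without replicate 1, with 1608 to 2456 higher in CD34hi and 1860 to 2780 higher in CD34lo. The cause of the shift under upper-quartile scaling and of the changes under the replicate block was not tested, whereas the stricter thresholds, the filter of at least 10 counts and the settings that leave out samples use a narrower rule, fewer genes or fewer samples by construction. Depth limits *Inhba*, with 9 to 13 counts in the CD34hi libraries.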
